A study of Mus musculus with 576 samples.

Results

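Genomic imprinting leaves only 1 parental copy of a gene active, and many imprinted genes act on embryonic growth. The genes described here are 10 such growth genes, picked by name: H19, Dlk1, Meg3, Peg3, Peg10, Plagl1, Mest, Grb10, Ndn and Zim1. Of the 10, 8 have a row among the 36658 genes of the count tables. H19 and Meg3, both long non-coding RNAs, were not analysed here. The tables hold 21888 of the 22028 protein-coding genes of GENCODE M21 and 21 of its 5854 lincRNA genes.

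The cells came from the dorsal pancreas, dissected from C57BL/6J mouse embryos at embryonic day 12.5, and each was sequenced by Smart-seq2, which reads full-length transcripts well by well. GFP+ cells were sorted from 3 lines, each into 2 plates of 96 wells. In Nkx2.5-Cre;mTmG (plates 6A and 6B) and Nkx3.2-Cre;mTmG embryos (plates 7A and 7B) a Cre driven from the named homeobox gene switches on membrane GFP in a cell and in all its descendants. In Prox1-GFP embryos (plates 8A and 8B) a transgene expresses GFP where the Prox1 promoter is active. Embryos were of both sexes, no label ties a cell to an embryo, and each line therefore counts as 1 sample, so that no test between groups was made. Intervals below are exact 95% Poisson intervals for levels and exact binomial (Clopper-Pearson) intervals for shares of cells. For ratios they come from the exact binomial interval of the first group's counts within the counts of both groups. They cover counting error only, and reads without molecular identifiers are not independent molecules, so the spread between the 2 plates of a line is given beside them.

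Of 576 libraries, 549 passed the filter, with total counts from 224814 to 1512736 and a median of 901156. Clusters built without the imprinted genes gave 20 endocrine cells and 86 other epithelial cells, all from the Prox1 line, 29 mesothelial cells (5 from the Nkx2.5 line, 23 from the Nkx3.2 line and 1 from the Prox1 line) and 413 mesenchymal cells (87 on 6A, 81 on 6B, 92 on 7A, 76 on 7B, 33 on 8A and 44 on 8B). Chga was at 1117 CPM (counts per 1000000 counts of the cells summed) in endocrine cells and 0.108 in the other epithelium, Epcam was at 850 CPM in the other epithelium, Upk3b at 517 CPM in Nkx3.2-line mesothelial cells, and Col3a1 between 1331 and 1399 CPM in mesenchymal cells of the 3 lines. Nkx3-2 was found in 57.1% of Nkx3.2-line, 38.7% of Nkx2.5-line and 42.9% of Prox1-line mesenchymal cells, and Nkx2-5 in 20.8% of Nkx2.5-line cells against 29.2% and 33.8% in the Nkx3.2 and Prox1 lines, so that Nkx2-5 was found least often in its own line. Prox1 was found in 45.5% of the Prox1-line mesenchymal cells against 1.79% in both other lines. In 1 cell 85.7% of the immune markers were detected and 15.8% of the mesenchymal ones. That cell was set aside, and none of the 8 genes reached 1 count in it. Each line has plates of its own, and Prox1-line libraries also carry a separate series of library numbers, so that between lines, plate and line cannot be told apart.

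The 8 measured genes fall into 3 kinds by what they encode. Plagl1 (a zinc finger transcription factor that can regulate other imprinted genes), Peg3 and Zim1 (zinc finger proteins) and Ndn (necdin, a MAGE family protein) act in the nucleus or on transcription. Dlk1 (a transmembrane protein resembling Notch ligands), Grb10 (an adaptor that restrains insulin and insulin-like growth factor receptors) and Mest (a hydrolase-like protein of the endoplasmic reticulum) act outside it. Peg10 derives from a retrotransposon and is needed for the placenta. In most embryonic tissues Grb10 and Zim1 are read from the maternal copy and the other six from the paternal one. The counts here do not separate the parental copies.

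Peg3 (ENSMUSG00000002265, chr7:6703892-6730431, minus strand) and Zim1 (ENSMUSG00000002266, chr7:6671269-6696450, minus strand) are neighbours on chromosome 7, and Ndn (ENSMUSG00000033585, chr7:62346569-62350262, plus strand) lies farther along it. Peg10 (ENSMUSG00000092035, chr6:4747306-4760517) and Mest (ENSMUSG00000051855, chr6:30723547-30748465) share chromosome 6. Plagl1 (ENSMUSG00000019817, chr10:13060504-13131694), Grb10 (ENSMUSG00000020176, chr11:11930508-12038683, minus strand) and Dlk1 (ENSMUSG00000040856, chr12:109452823-109463336) share their chromosomes with no other measured member (GRCm38, GENCODE M21). A second row without a symbol held the same values as Dlk1 in all 576 libraries, and 52.01% of the Dlk1 values above 0 were not whole numbers. The 2 rows were added to give Dlk1, and its own row alone gives lower levels and the same ratios. Of the values above 0, 77.9% of Zim1 and 40.2% of Mest were not whole numbers, whereas those of Peg3, Peg10, Grb10 and Ndn were all whole.

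The promoter windows of 5 of the genes are shown next, chosen for their levels in the 2 epithelial states, as RefSeq gives them for GRCm38.p6 (250 bases before to 50 after the start, 5′ to 3′ on the gene's strand). Capitals mark CG pairs, the bases at which imprinted promoters carry methylation. Plagl1 (chr10:13090582-13090881), Mest (the last of 3 windows, chr6:30737803-30738102) and Dlk1 (chr12:109452573-109452872) were lower in endocrine than in other epithelial cells, and Ndn (chr7:62348027-62348326) was higher, each past 2-fold. Zim1 (chr7:6696383-6696682), 1.92-fold higher, did not reach 2-fold.
Plagl1: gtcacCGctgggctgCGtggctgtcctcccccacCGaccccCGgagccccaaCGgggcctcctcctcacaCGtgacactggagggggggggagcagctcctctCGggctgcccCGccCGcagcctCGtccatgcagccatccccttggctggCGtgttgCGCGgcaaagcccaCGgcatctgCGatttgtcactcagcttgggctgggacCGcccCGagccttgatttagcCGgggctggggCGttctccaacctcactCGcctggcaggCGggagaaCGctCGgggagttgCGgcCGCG
Mest: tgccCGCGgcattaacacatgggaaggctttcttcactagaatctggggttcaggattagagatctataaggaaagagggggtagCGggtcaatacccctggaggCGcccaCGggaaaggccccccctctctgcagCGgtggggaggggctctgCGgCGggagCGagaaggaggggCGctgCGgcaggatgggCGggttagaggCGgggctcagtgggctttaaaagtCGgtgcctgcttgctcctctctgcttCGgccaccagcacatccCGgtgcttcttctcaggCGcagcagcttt
Dlk1: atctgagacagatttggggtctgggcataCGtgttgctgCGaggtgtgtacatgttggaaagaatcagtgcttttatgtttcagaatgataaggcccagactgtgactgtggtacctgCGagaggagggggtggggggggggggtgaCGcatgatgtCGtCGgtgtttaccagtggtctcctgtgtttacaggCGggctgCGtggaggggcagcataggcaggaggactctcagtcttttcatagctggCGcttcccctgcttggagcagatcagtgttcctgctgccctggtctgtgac
Ndn: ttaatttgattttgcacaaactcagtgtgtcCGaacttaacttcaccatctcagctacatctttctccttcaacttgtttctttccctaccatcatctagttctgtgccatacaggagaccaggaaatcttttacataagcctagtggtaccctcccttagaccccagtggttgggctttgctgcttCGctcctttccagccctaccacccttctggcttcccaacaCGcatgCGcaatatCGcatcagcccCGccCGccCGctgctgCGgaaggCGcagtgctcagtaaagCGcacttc
Zim1: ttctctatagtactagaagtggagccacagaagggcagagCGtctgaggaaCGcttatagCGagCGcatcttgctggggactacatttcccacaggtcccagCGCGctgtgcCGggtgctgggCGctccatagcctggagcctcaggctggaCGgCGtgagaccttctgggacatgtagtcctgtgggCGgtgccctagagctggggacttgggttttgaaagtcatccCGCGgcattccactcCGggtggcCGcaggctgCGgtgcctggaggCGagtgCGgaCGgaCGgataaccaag

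The Plagl1 window holds 26 CG pairs, the Zim1 window 20, the Mest window 17, the Ndn window 11 and the Dlk1 window 9, against a median of 7 over the 32851 windows of the table. The GC box GGGCGG, searched on both strands, is in the Plagl1, Mest, Ndn and Zim1 windows and not in the Dlk1 window, and 35.7% of all windows hold it.

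Plagl1 had the widest range over the states of the 8 genes, 10.90 in log2(CPM + 1) over 11 groups of line, plate and state. Its lowest group had 0 counts, so the size of the range rests on the added 1. Its level, the CPM after adding up all cells of a group, was 1606 and 1528 on plates 6A and 6B, 1695 and 1913 on 7A and 7B, and 1633 and 1448 on 8A and 8B in mesenchymal cells. In the other epithelium it was 14.1 on 8A and 15.5 on 8B. In endocrine cells it was 0 on 8A and 0.111 on 8B, a single count in 20 cells. Mesothelial cells of the Nkx3.2 line lay between, at 381 CPM (95% interval 373 to 390). Plagl1 was thus high in all 6 mesenchymal groups, with no overlap with any other state. A count was found in 97.6% to 100% of mesenchymal cells by line, in 21 of 23 Nkx3.2-line mesothelial cells, in 22.1% of the other epithelial cells (13.9% to 32.3%) and in 1 of 20 endocrine cells. In the epithelium the 5 cells with the most Plagl1 held 70.3% of its counts.

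Mest followed the same order with a smaller span. Mesenchymal levels ran from 2997 CPM on 6A to 5290 CPM on 7A, and every mesenchymal cell had a count. The other epithelium stood at 990 CPM on 8A and 929 CPM on 8B, and endocrine cells at 78.6 and 63.6 CPM. Among single endocrine cells Mest was absent from 12 of 20, and the cell with the most held 50.4% of the counts. Nkx3.2-line mesothelial cells were at 1355 CPM, above the epithelium and below all mesenchymal plates. The 3′ end of Mest overlaps Copg2 on the opposite strand, and the strand setting of the counting is not given in the sources used here.

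**Figure D1:**
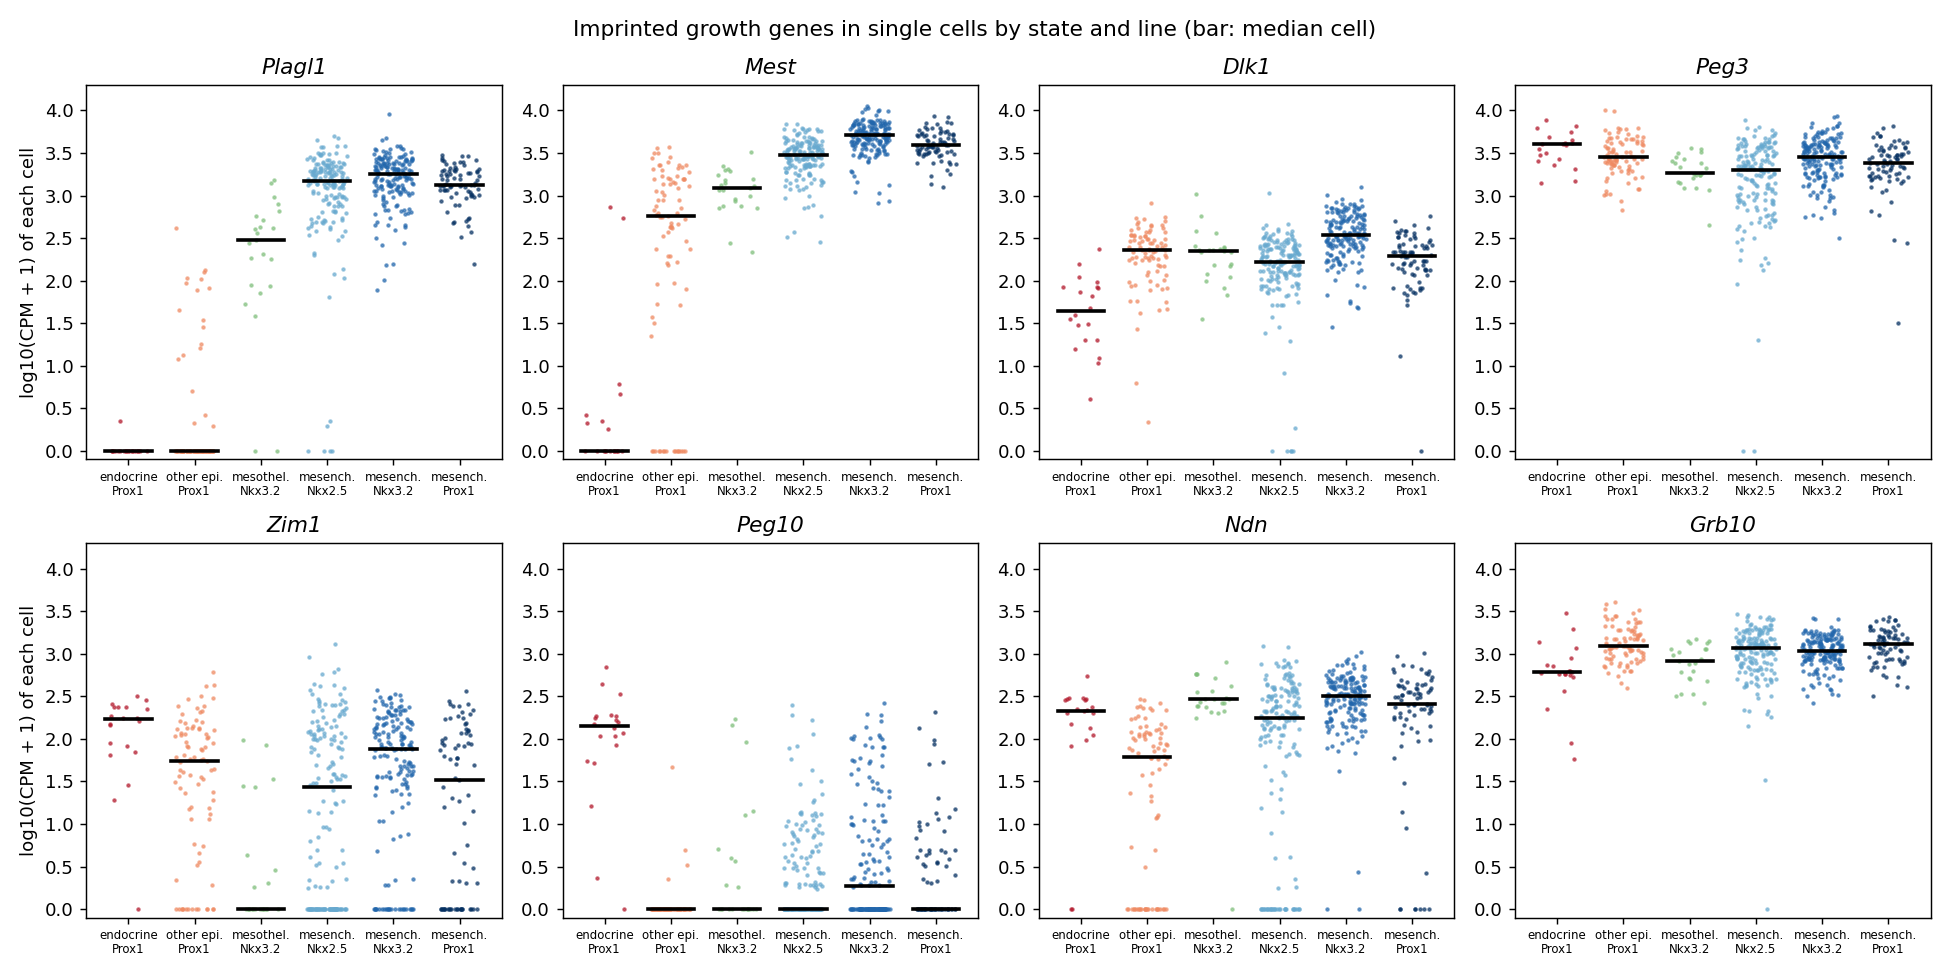
Each point is 1 cell, on a vertical scale of log10(CPM + 1), for the 8 genes in 6 groups of state and line, and the black bar is the median cell. Plagl1 and Mest step up from endocrine to mesenchymal cells, Peg10 is high in endocrine cells alone of the 6 groups by its median, and Peg3 and Grb10 are found in nearly every cell.

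Peg10 was highest in endocrine cells. In endocrine cells its level was 190.4 CPM on 8A and 136.3 CPM on 8B, and 19 of 20 cells had a count. In the other epithelium it had 0 counts in the 49 cells of 8A, where 3 counts would be 0.0773 CPM. It had 60 counts in the 37 cells of 8B, of which 54 came from 1 cell. Mesenchymal levels were 11.7 and 5.96 CPM on 6A and 6B, 14.7 and 22.5 on 7A and 7B, and 7.43 and 12.03 on 8A and 8B. About as many mesenchymal cells had a count as not, with 46.8% to 50.6% by line, yet the top 5% of cells held 74.4% of Peg10 counts for Nkx2.5-Cre, 47.03% for Nkx3.2-Cre and 69% for Prox1-GFP embryos. Thinned to 100000 counts per cell, 22.02% to 29.2% of mesenchymal cells kept a count of Peg10, against 90% of endocrine cells.

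Peg3 was high everywhere. It was at 3889 and 4069 CPM in endocrine cells, 3030 and 3399 CPM in the other epithelium and between 2069 and 3463 CPM on the mesenchymal plates. The order of states overlapped, since 7B mesenchyme exceeded both epithelial values. Zim1, its neighbour, reached 198 and 123.8 CPM in endocrine cells, 94.4 and 67.4 CPM in the other epithelium and 66.4 to 118.4 CPM on the mesenchymal plates. Mesothelial cells were the exception for Zim1, with 12.8 CPM (11.2 to 14.5) in the Nkx3.2 line and a count in 9 of 23 cells.

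Ndn was lowest in the other epithelium, at 77.1 and 69.1 CPM, below endocrine cells at 190.9 and 220 CPM. Mesenchymal plates gave 204 to 357 CPM and Nkx3.2-line mesothelial cells 337 CPM. Dlk1 was lowest in endocrine cells, at 67.4 and 57 CPM, while the other epithelium stood at 269 and 212 CPM, within the mesenchymal range of 170.7 to 397 CPM. Grb10 varied least between mesenchymal plates, from 1097 to 1392 CPM. It was at 1564 and 1324 CPM in the other epithelium and at 893 and 680 CPM in endocrine cells, below the epithelial and mesenchymal plates and overlapping the mesothelial value of 792 CPM on 7B.

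Divided by the exon length of the gene model, so that genes can be ranked against each other, Mest led in mesenchymal cells of every line, at 775, 1324 and 1077 CPM per kilobase. In the other epithelium Mest and Peg3 were near each other at 244 and 240 CPM per kilobase, and in endocrine cells Peg3 led with 299 CPM per kilobase ahead of Grb10 with 85.5. Peg10 was the lowest of the 8 in mesenchymal cells of each line, and Plagl1 was the lowest in endocrine cells. Together the 8 genes took 0.851% to 1.20% of all counts in mesenchymal cells by line, 0.603% in the other epithelium and 0.542% in endocrine cells.

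The first comparison set the other epithelium against the mesenchyme of the Prox1 line, where both come from the same plates. Of the 8 genes 4 were lower in the epithelium by 2-fold or more and none was higher. Over the 10682 genes at 10 CPM or more in 1 of the groups, 13.7% were lower and 14.6% higher by as much. Plagl1 was 103.3-fold lower (97.2 to 109.8), Peg10 12.3-fold (9.44 to 16.4), Mest 4.42-fold (4.38 to 4.46) and Ndn 4.19-fold (4.07 to 4.32). For these 4 genes the plate values of the states did not overlap. Plagl1 held place 203 from the lowest ratio. Peg10 entered the count through its mesenchymal level of 10.17 CPM, just over the 10 CPM needed, and on 8A that level was 7.43 CPM. The ratio of Peg10 rests on the same 60 epithelial counts, with 0.0104 on 8A (0 counts, set to 3) and 0.147 on 8B. When states were instead given to each cell from the share of markers it expressed, it was 0.577, no longer past 2-fold. Peg3, Dlk1, Zim1 and Grb10 differed by ratios of 1.24, 1.17, 1.13 and 1.08, and for the last 3 the plate values of the states overlapped.

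The second comparison set endocrine against other epithelial cells of the Prox1 line. Here 5 of the 8 passed 2-fold, 2 of them higher (against 19.1% of 10944 genes) and 3 lower (37.5%, against 23.8%). Peg10 was 195-fold higher (150.9 to 256), place 199 from the highest ratio. That size turns on the 60 epithelial counts, of which 1 cell held 54. The ratio was 2462 on 8A with the 0 epithelial counts set to 3, 76.99 on 8B and 27.6 with states from the share of markers. Ndn was 2.82-fold higher (2.70 to 2.95). Zim1 was 1.92-fold higher, with 2.10 on 8A and 1.84 on 8B, so that it lay on both sides of the threshold. Plagl1 had a single endocrine count, which gives a ratio of 244 with an interval of 43.7 to 9650, and with that sum set to 3 counts, as in the plot of ratios, it was 81.4-fold lower. Mest was 13.7-fold lower (12.9 to 14.5) and Dlk1 3.93-fold lower (3.69 to 4.19), while Grb10 was 1.87-fold lower. All 8 genes had plate values that did not overlap between the 2 states. Between the 2 plates, 36.7% of all genes lay 2-fold or more apart within endocrine cells (10 cells each), and 10% within the other epithelium. The 8 genes differed by at most 1.60-fold between the endocrine plates, Plagl1 at 0 and 1 count aside. Markers grouped as neural crest, among them the neuronal genes Tubb3 and Elavl4, were detected at 26.4% in endocrine cells and 4.49% in the other epithelium, and their part in the result was not tested.

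**Figure D2:**
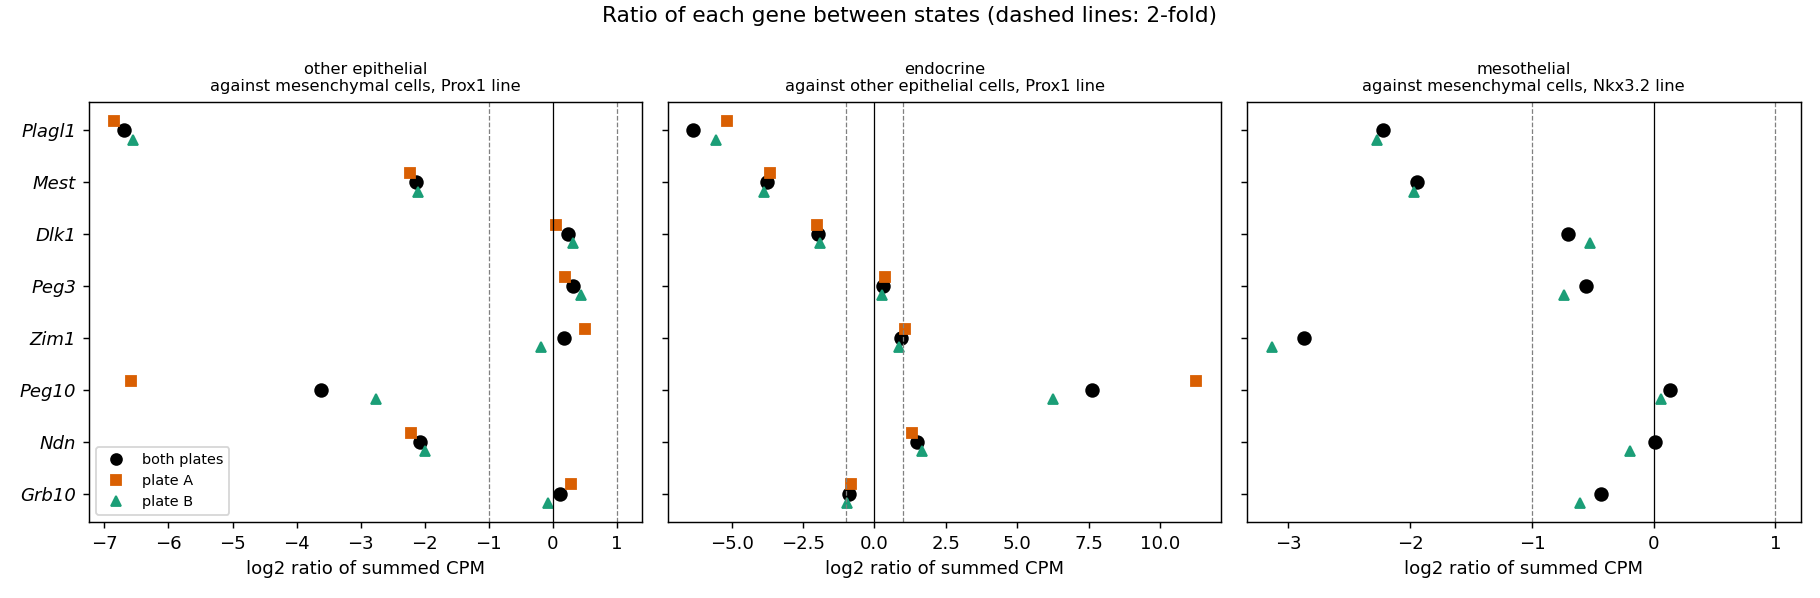
Log2 ratios of summed CPM for the 8 genes in 3 comparisons of states, for both plates together (circles) and for each plate with at least 5 cells per state (squares and triangles). Groups with fewer than 3 counts were set to 3 counts, so the Peg10 value of plate A and the endocrine values of Plagl1 rest on that setting. Dashed lines mark 2-fold. Plagl1 and Mest lie left of the lines in all 3 panels, and Peg10 changes side between the first 2.

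Mesothelial cells cover the organ's surface. In the Nkx3.2 line they were set against the mesenchyme, and 3 of the 8 genes were lower by 2-fold or more (37.5%, against 12.3% of 10486 genes) and none was higher, against 12.3% of all genes. Zim1 was 7.34-fold lower (6.45 to 8.34), Plagl1 4.67-fold (4.56 to 4.78) and Mest 3.85-fold (3.81 to 3.90). Ndn and Peg10 gave ratios of 1.01 and 1.10, with counting intervals that include 1. As 20 of the 23 mesothelial cells came from plate 7B, the plates could not be compared. Within 7B alone the ratios were 0.114 for Zim1, 0.207 for Plagl1, 0.256 for Mest, 0.875 for Ndn and 1.04 for Peg10. Within 7A, with 3 mesothelial cells, Ndn gave 1.49 and Peg10 0.117, so the pooled ratios near 1 mix unlike plates. In the Nkx2.5 line only 5 mesothelial cells were found, and with so few cells 33.8% of 10267 genes were lower and 18.5% higher by 2-fold. Zim1 was at 6.72 CPM against 94.9 and Plagl1 at 403 CPM against 1568, and these 2 of the 7 genes at 10 CPM or more were past 2-fold. Mest was 1.93-fold lower there. Ndn was at 466 CPM in the 5 mesothelial cells and at 233 CPM in the mesenchyme, just short of 2-fold. The plates parted, with ratios of 2.57 on 6A (3 mesothelial cells) and 1.06 on 6B (2 mesothelial cells).

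Within the epithelium a second round of clustering, also made without the imprinted genes, gave 4 sub-clusters, and Mest differed between them on both plates. Sub-clusters 0.0 and 0.1 (55 cells) had high Cpa1, a carboxypeptidase of the epithelial tips, at 1775 CPM. Sub-clusters 0.2 and 0.3 (31 cells) had 42.3 CPM of Cpa1 and 3.92-fold more Spp1, a secreted protein of ductal cells. Mest was at 1510 CPM in the Cpa1-high and 182.5 CPM in the Cpa1-low sub-clusters on 8A, and at 1165 and 177.8 CPM on 8B. The levels on the Cpa1-high side were thus 8.27-fold and 6.55-fold those on the other side. Dlk1 was 1.85-fold and 2.35-fold higher on the Cpa1-high side on the 2 plates. Zim1 leaned the other way, 2.26-fold and 1.41-fold higher on the Cpa1-low side, and Peg3 1.24-fold and 1.403-fold. On 8B, though, Zim1 was at 130.8 CPM in sub-cluster 0.2 and at 0.364 CPM in the 3 cells of 0.3. Across single epithelial cells the Spearman correlation of Mest with Cpa1 was 0.64 over 49 cells on 8A and 0.66 over 37 cells on 8B, and with Spp1 it was -0.51 and -0.56. That of Zim1 with Cpa1 was -0.42 on 8A and -0.04 on 8B. The cells of a plate share its batch and differ in depth, so the values are descriptions. Sub-cluster 0.2, where 8 of 16 cells had a count of Neurog3 (the factor that starts endocrine differentiation), had no count of Peg10 and 230 CPM of Mest.

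**Figure D3:**
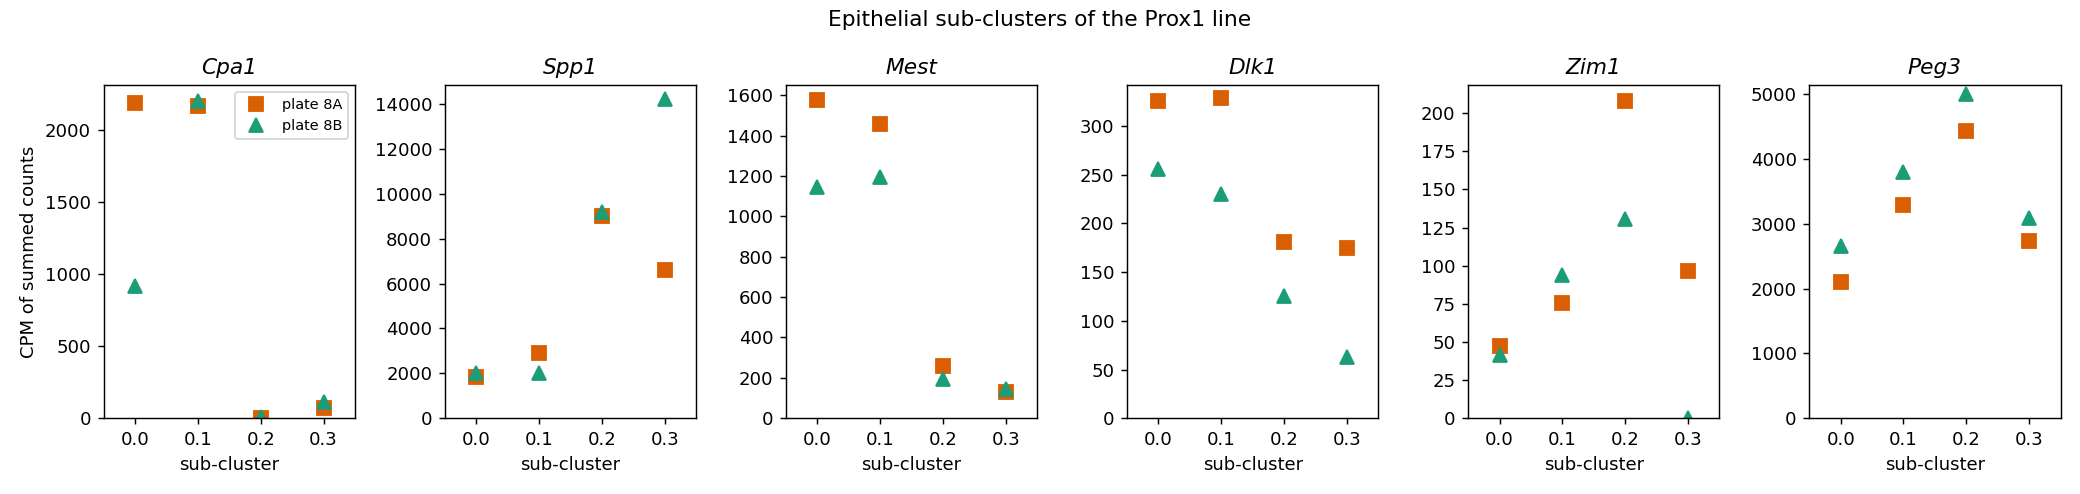
Level (CPM of summed counts, axes from 0) of Cpa1, Spp1 and 4 members in the 4 epithelial sub-clusters of the Prox1 line, with plate 8A as squares and 8B as triangles. Mest and Dlk1 are highest in sub-clusters 0.0 and 0.1 with Cpa1, and Zim1 and Peg3 are highest in 0.2. Sub-cluster 0.3 holds 3 cells on 8B.

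Mesenchymal cells were then compared between lines. Between the Nkx2.5 and Nkx3.2 lines, 1 of the 8 genes was 2-fold or more lower in the Nkx2.5 line (5.64% of 10026 genes) and none was higher (4.27%). That gene was Dlk1, at 184.1 CPM (182.1 to 186.1) against 395 CPM (392 to 398), a 2.15-fold difference. The plates of each line lay close together, with 184.8 and 183.3 CPM on 6A and 6B and 394 and 397 CPM on 7A and 7B. The 2 lines fill different clusters, with 62 Nkx2.5-line and 7 Nkx3.2-line cells in cluster 3 and 2 against 34 in cluster 6, where Dlk1 was highest in the Nkx3.2 line. Leading genes of cluster 3 include Ddx3y and Kdm5d of the Y chromosome, and the part of embryo sex in the line differences was not tested. Within each of clusters 1 to 5 Dlk1 was lower in the Nkx2.5 line, at 185.6 against 336 CPM in cluster 1, 154.9 against 386 in 2, 214 against 418.5 in 3, 77.6 against 349 in 4 and 215 against 385 in 5, differences of which those in clusters 1, 3 and 5 lie under 2-fold. By single cells the medians were 165.9 CPM and 341 CPM in these lines. Mest was 1.71-fold lower in the Nkx2.5 line, Ndn 1.44-fold and Peg3 1.39-fold, each without overlap of plates, while Zim1 and Grb10 overlapped. Peg10 was 1.99-fold lower, with ratios of 0.795 for 6A against 7A and 0.265 for 6B against 7B, plates that share only a letter. The Nkx2.5-line mesenchymal cells had fewer genes detected, with a median of 5833 against 7314, and more counts, with a median of 1054465 against 897271. The part of either in these differences was not tested.

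The Prox1-line mesenchyme set against the Nkx3.2 line had none of the 8 genes past 2-fold, against 4.12% higher and 4.73% lower of 10016 genes. Dlk1 came closest, 1.91-fold lower, at 260 CPM on 8A and 170.7 on 8B against 394 on 7A and 397 on 7B. Peg10 was 1.75-fold lower, and the remaining 6 genes lay at most 1.29-fold apart. Within a line the plates of mesenchymal cells set the scale, since 11.9% of all genes lay 2-fold or more apart between 6A and 6B, 4.06% between 7A and 7B and 16.1% between 8A and 8B. The 8 genes lay at most 1.96-fold, 1.53-fold and 1.62-fold apart in these plate pairs, Peg10 being the farthest in each.

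**Figure D4:**
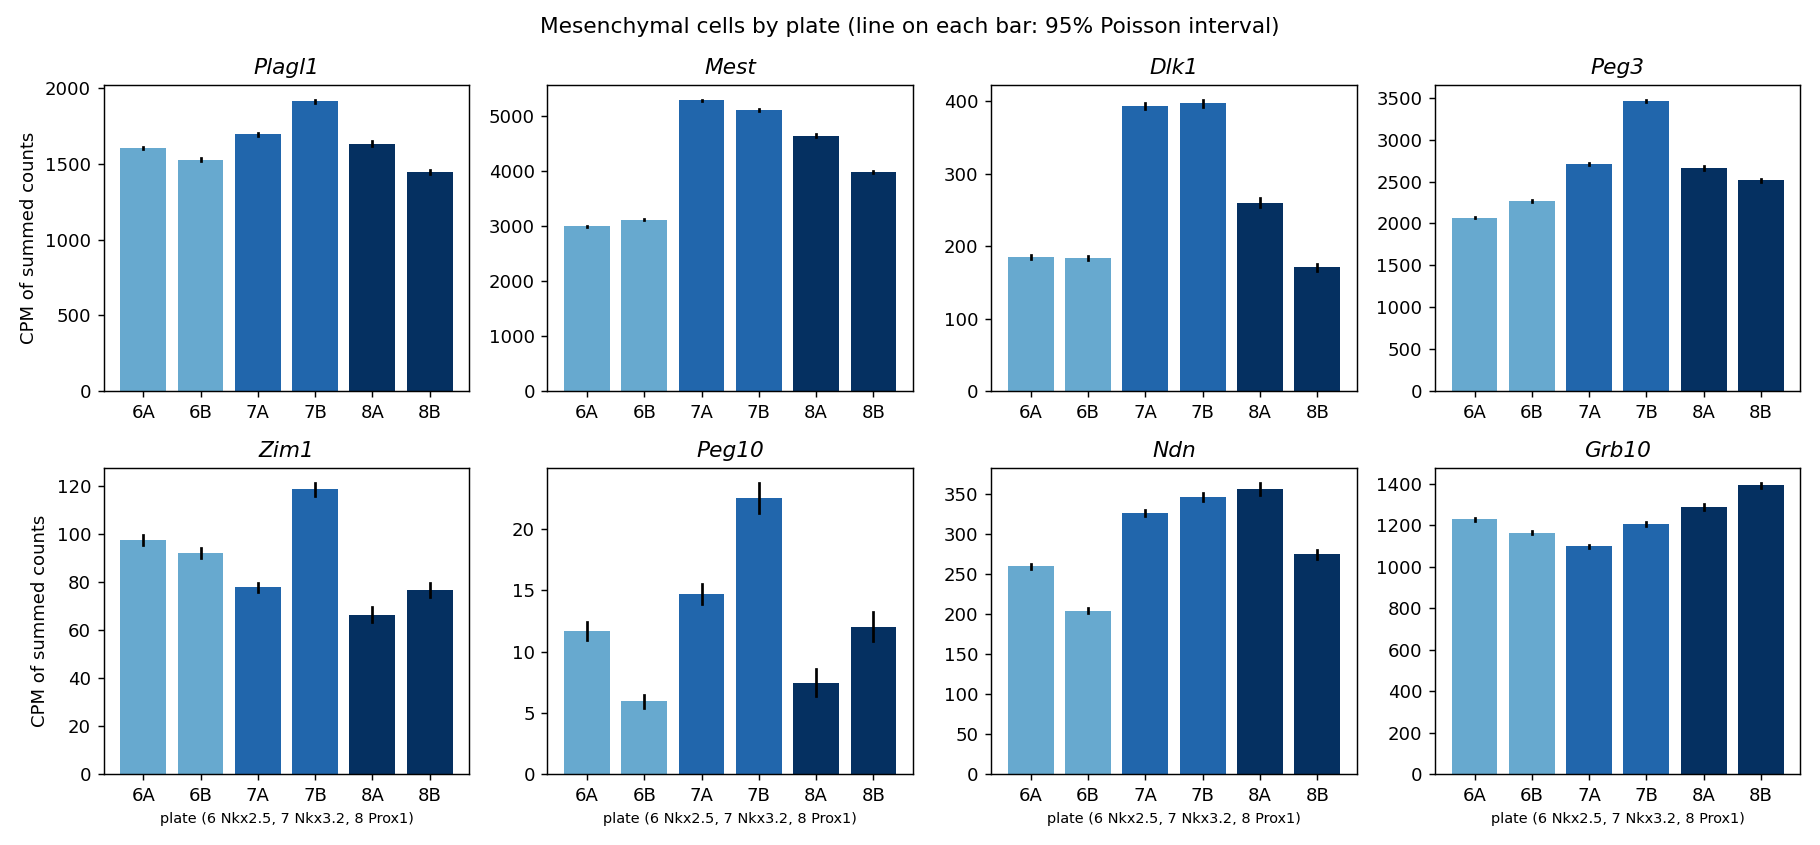
Level (CPM of summed counts, axes from 0) of the 8 genes in mesenchymal cells of the 6 plates, with the 95% Poisson interval as a line on each bar. Dlk1 and Mest stand higher on 7A and 7B than on the other plates, and Peg10 differs between plates of the same line.

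The members also varied between clusters within the mesenchyme. In the Nkx3.2 line cluster 6, led by Acta2 and Tagln (genes of smooth muscle and mural cells), had the highest Dlk1, 544 CPM against 210 to 419 CPM in the 6 other clusters, and the highest Peg3, 3989 CPM against 2231 to 3159 CPM. In the Prox1 line its 6 cells were not the highest in either, with Dlk1 at 265 CPM against 317 in cluster 3 and Peg3 at 2373 CPM against 3488 in cluster 8. Plagl1 ran from 1084 to 2340 CPM and Mest from 4127 to 6417 CPM across the 7 Nkx3.2-line clusters. Cluster 8, with 18 of its 26 cells from the Prox1 line, is led in part by neuronal genes such as Stmn2 and Gria2 and had mesenchymal markers detected at 62.96%. In the Prox1 line its Peg10 was at 22.9 CPM against 2.10 to 12.4 CPM in the 5 other clusters with at least 5 cells, and its Plagl1 at 1698 CPM. In the Nkx3.2 line the same cluster, with 7 cells, had the lowest Peg10 of the 7 clusters, 2.34 CPM against 5.47 to 41.8 CPM.

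Cells with a count of both Mki67 and Top2a, the cycling cells, made up 24.4%, 27.4% and 35.1% of mesenchymal cells of Nkx2.5-Cre, Nkx3.2-Cre and Prox1-GFP embryos. In the first 2 of these lines none of the members at 10 CPM or more differed by 2-fold between cycling and other cells. Of all genes, 7.59% were higher and 9.73% lower of 9977 in the first line and 3.81% and 5.62% of 9940 in the second. In the Nkx2.5 line 7 members were at 10 CPM or more. Peg10 lay below that level there, with ratios of 1.05 on 6A and 0.123 on 6B. In the Prox1 line 1 of the 8, Peg10, was 3.61-fold lower in cycling cells, against 8.21% higher and 11.1% lower of 10056 genes, but the 2 plates parted, with ratios of 1.0 on 8A and 0.121 on 8B. The median log2 ratio of cycling to other cells over all genes tested was -0.08, -0.06 and -0.07 in the 3 lines. Ratios of Peg3 were 0.62, 0.83 and 0.84, Grb10 0.80, 0.83 and 0.83, Dlk1 0.71, 0.91 and 0.84, Ndn 0.71, 0.94 and 0.78 and Mest 0.87, 0.86 and 0.96. Those of Plagl1, 0.89, 0.90 and 1.03, and of Zim1, 0.83, 0.95 and 1.10, were above 1 in the Prox1 line. For Zim1 the 2 plates of that line parted, with 0.777 on 8A and 1.23 on 8B. None of these reached 2-fold.

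Across single mesenchymal cells the members were at most loosely related. Of the 28 pairs, Dlk1 with Mest and Peg3 with Mest had the highest median Spearman correlation over the 6 plates, 0.28 each, from 0.11 to 0.36 and from 0.13 to 0.36. The neighbours Peg3 and Zim1 had a median of 0.25 and were positive on 6 of 6 plates. So were pairs on different chromosomes, such as Dlk1 with Peg3 and Dlk1 with Plagl1, also at 0.25 each. In the epithelium Dlk1 with Mest gave 0.38 on 8A and 0.52 on 8B, whereas Peg3 with Mest gave negative values, from -0.33 to -0.28. These values, too, are descriptions of cells that share a plate.

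The genes most like each member over 11 groups of line, plate and state were taken among 7873 genes at 50 CPM or more in a group, by Pearson correlation of log2(CPM + 1). Plagl1 was closest to Sfrp1 (0.996), a secreted Wnt inhibitor, and Stra6 (0.995), the receptor for retinol-binding protein. Mest was closest to Angptl2 (0.992) and Ccdc102a (0.989), and Peg10 to Nptn (0.954). Dlk1 was closest to Ube2d1 and Trim27, Zim1 to Prkar1b and Kit, Ndn to Tgfb2 and B3gnt5, Grb10 to Ppp4r3a and Ankrd27 and Peg3 to Hist1h4i and Cox6a1, at 0.894 to 0.985. The groups share lines and plates, and Peg3 and Grb10 varied by only 0.98 and 1.20 in log2 units over them.

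Other imprinted genes were described by a list of 64, of which 56 had rows. Of 37 at 10 CPM or more, 16 (43.2%, against 13.7% of all genes tested) were lower in the other epithelium than in the mesenchyme by 2-fold and 5 (13.5%, against 14.6%) were higher, with a median ratio of 0.543, against 0.507 for the members. Among those lower were Cdkn1c, an inhibitor of cell cycle kinases, at 213 CPM against 1201, Nnat at 100 CPM against 947, Igf2, the fetal growth factor, at 369 CPM against 823, and Phactr2, which neighbours Plagl1, at 37.4 CPM against 747. Higher were Ddc and Rasgrf1, with Ppp1r9a, Pon3 and Snrpn.

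From the other epithelium to endocrine cells, 13 of 37 listed genes (35.1%, against 19.1% of all genes tested) were higher and 8 (21.6%, against 23.8%) lower. Around Peg10 on chromosome 6, Sgce, Asb4, Pon3, Casd1, Ppp1r9a and Calcr were higher in endocrine cells by 2-fold or more, while Pon2 (38.1 against 27.3 CPM) and Tfpi2 (7.85 against 9.08 CPM) were not. Asb4 was at 359 CPM against 30.3 and Sgce at 219 CPM against 19.5. Calcr, the calcitonin receptor, was at 117.3 CPM with 0 counts in the other epithelium, a 2842-fold difference when that group is set to 3 counts. Outside that domain Gnas, the stimulatory G protein subunit, was at 7343 CPM against 643, Zdbf2 at 269 CPM against 16.2 and Nap1l5 at 232 CPM with 0 counts in the epithelium. Slc38a4, an amino acid transporter, was at 8.76 CPM against 516, Peg12 at 0.484 CPM against 39.6 and Igf2 at 88.9 CPM against 369.

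**Figure D5:**
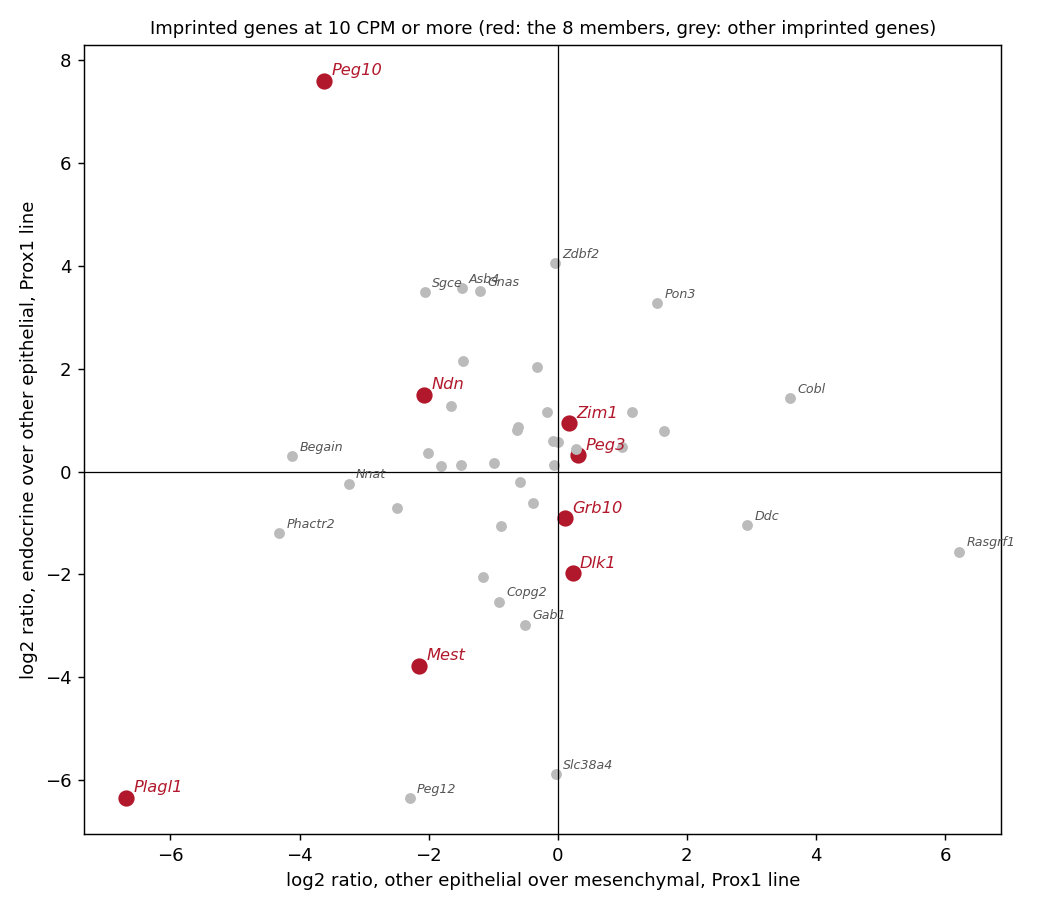
Log2 ratio of other epithelial over mesenchymal cells (horizontal) and of endocrine over other epithelial cells (vertical) in the Prox1 line for 45 imprinted genes at 10 CPM or more, the 8 members in red. Both axes share the other epithelial cells. Groups with fewer than 3 counts were set to 3, and Calcr, Klf14, Magel2 and Nap1l5, at or under 3 counts in both groups of 1 comparison, are not drawn. Plagl1 and Mest lie low on both axes and Peg10 lies at the upper left.

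In the mesothelium of the Nkx3.2 line 10 of 38 listed genes (26.3%, against 12.3% of all genes tested) were lower than in the mesenchyme and 4 (10.5%, against 12.3%) higher. In the Nkx2.5 line, with 5 mesothelial cells, 19 of 39 (48.7%, against 33.8%) were lower and 4 (10.3%, against 18.5%) higher. Between the mesenchyme of the Nkx2.5 and Nkx3.2 lines 5 of 38 (13.2%, against 4.27%) were higher and 2 (5.26%, against 5.64%) lower, Igf2 among the latter at 616 CPM against 1417. In the Prox1 against the Nkx3.2 line 2 of 37 (5.41%, against 4.12%) were higher and 1 (2.70%, against 4.73%) lower.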

How the data were processed

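Single GFP+ cells in 576 wells were profiled by Smart-seq2. The authors trimmed reads (Trim Galore 0.6.5), estimated transcript abundance with kallisto 0.46.1 on GRCm38 and summed it to genes with tximport 1.18.0. The deposited values are estimated counts per gene, without molecular identifiers, and the annotation release is not given in the sources used here. The study's filter (at least 1000 genes, at least 100000 counts, at most 30% mitochondrial counts) kept 549 libraries with 224814 to 1512736 counts.

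Cells were clustered with Seurat 5.3.0 (R 4.3.3) on 1988 variable genes without the imprinted list, at resolution 1.9 and 20 components, and the 10 clusters were named from the marker lists. The rule that set 1 cell aside for its immune markers was made after the clusters were seen. Counts were summed by line, plate and state and divided by the total (CPM). Unrounded sums entered the exact 95% intervals of levels (scipy 1.17.1), and sums rounded to whole counts entered those of ratios. All of these intervals cover counting error only. Genes with a symbol at 10 CPM or more in 1 group were compared, a 2-fold ratio was called, and in calls and plots sums under 3 counts were set to 3. Each line was 1 sample, so no test was made and no p-value is given. The scripts were tested on simulated data.

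All 10 genes are named by rule, other imprinted genes where a state reached 10 CPM, and the 2 genes most like each, of which 1 is not reported here. The members and lists were chosen with earlier results of these data known. Alternatives covered filters, states, clustering, thinning, scaling (edgeR 4.0.16 TMM), plates and thresholds, and 4 were added after seeing the data (states from the share of markers, the immune cell kept, cluster 8 left out, Dlk1 from its own row).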

Additional observations from a re-analysis of the deposited data

Results flagged for a closer look

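The direction of Plagl1 between cycling and other mesenchymal cells differed between lines. In the Prox1 line its ratio of cycling to other cells was 1.03, above 1 on both plates, whereas it was 0.889 in the Nkx2.5 line and 0.903 in the Nkx3.2 line, below 1 on both plates of each. By plate the Prox1-line ratio was 1.14 on 8A, with 8 cycling cells, and 1.01 on 8B. In the Prox1 and Nkx3.2 lines the plate values of cycling and other cells overlapped. The difference between lines was not tested, and all 3 ratios lie far inside 2-fold.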

How the results depend on the processing

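The number of members past 2-fold moved by over 1.5 times in 17 recomputations, all given here. The shares of all genes under these settings are not given, so the counts describe the members only. For mesothelial against mesenchymal cells of the Nkx2.5 line (2 genes) a 1.5-fold threshold gave 5. For the mesenchyme of the Nkx2.5 against the Nkx3.2 line (1 gene) the mean over cells, thinning, leaving out the top 5% of cells, TMM scaling, plate B alone and leaving out cluster 8 each gave 2, the 1.5-fold threshold gave 3 and the 3-fold threshold 0. For the Prox1 against the Nkx3.2 line (0 genes) leaving out the top 5% of cells, plate B alone and leaving out cluster 8 each gave 1, and 1.5-fold gave 2. For cycling cells 1.5-fold gave 1 in the Nkx2.5 line (0 genes), and in the Prox1 line (1 gene) leaving out the top 5% of cells, plate A alone and leaving out cluster 8 each gave 0. Between lines, plates A and B pair plates that share only a letter. The causes were not tested. Of all 1048 recomputed ratios of members, 1024 kept their place against the 2-fold threshold (higher, lower or neither). Dlk1 from its own row leaves every ratio as it was. Keeping the immune cell can change only ratios with Prox1-line mesenchyme. Both settings are part of this tally and of the next. Of 243 recomputed ratios of members past 2-fold, 240 stayed past it in the same direction. The others were all of Peg10, at 0.577 in epithelial against mesenchymal cells with states from the share of markers, 0.690 in Nkx2.5-line mesothelial cells after thinning, and 1.0 in cycling Prox1-line cells on plate A, a reversal from 0.277. Of the recomputed shares of cells, 16 moved beyond their interval. Plates alone and states from summed markers left too few mesothelial cells of the Nkx2.5 line for a value, and plate A too few of the Nkx3.2 line. No paired analysis was possible because each line is 1 sample and no result comes from a test. Depth limits sums of few counts, such as Peg10 in the other epithelium (60 counts) and in Nkx2.5-line mesothelial cells (1 count) and Plagl1 in endocrine cells (1 count).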
